A study of Homo sapiens with 8 samples.

Results

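Cells take up iron, store it, export it and count it with a small set of proteins. Transferrin carries iron in blood and enters cells by the transferrin receptor, whereas the gut lining reduces dietary iron at its surface and takes it in through a metal transporter. Ferritin stores the metal, and ferroportin with the copper oxidase hephaestin passes it out of the cell on the blood side. Iron regulatory proteins bind hairpins in the messenger RNAs of several of these genes, the iron-responsive elements, and so set their translation or stability. Low oxygen is tied to this system because the enzymes that destroy hypoxia-inducible factor (HIF) need both oxygen and iron.

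The iron handling genes described here are TFRC, TF, FTH1, FTL, SLC11A2, SLC40A1, HEPH, ACO1, IREB2 and CYBRD1. Members were all probe sets that the platform annotation gives to exactly 1 of these symbols. That rule found 24 probe sets for 8 of the 10 genes, among 19775 genes with a probe set in the series. FTH1 and IREB2 had no probe set under their own symbol in the annotation used and are not analysed here. Of the 24 probe sets, 19 passed a filter on dim probe sets and were tested.

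The arrays cover a pair of human colon cancer lines. DKS-5 is labelled K-ras mutant, and DKO-3 is labelled K-ras knockout and wild-type. As background, both are known as clones of the DLD-1 colon cancer line, in which the mutant K-ras allele was kept in DKS-5 and disrupted in DKO-3. Cells of both lines were kept in normoxia (21% O2) or in hypoxia (1% O2 for 12 h), which gives 4 groups of 2 arrays. Each genotype is represented by 1 line, so genotype and clone cannot be told apart. Whether the 2 samples of a group were separate cultures is not stated, and the p-values then measure only their spread, which may be technical.

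Expression was read as the Affymetrix MAS5 signal, a brightness per probe set on a linear scale, after the arrays were brought to a common 2% trimmed mean of 172.1 from values between 133 and 201. Differences are given on the scale log2(scaled signal + 16), which understates the change of dim probe sets, with the standard error (SE) of a limma fit over all 32771 probe sets tested. Adjusted p means the Benjamini-Hochberg value over those probe sets, and a difference passed when it was below 0.05. Signals of different probe sets cannot be set against each other. NDRG1, a well known hypoxia-induced gene, rose by 3.82 ± 0.20 in DKS-5 (adjusted p = 3.44e-07) and by 2.34 ± 0.20 in DKO-3 (adjusted p = 0.000306), both by limma. Of 9 colon epithelium markers, 8 passed the filter and CDX1 did not. Of 10 markers of other cell types with a probe set, 3 passed it (COL1A1, ACTA2 and HBB), and their summed signal with the other 7 ran from 121 to 209 over all arrays.

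The DNA just upstream of the members the results turn on is shown first, because HEPH, CYBRD1 and SLC40A1 differed between the lines while TFRC carries a known hypoxia element. Each line is the 250 bases before the RefSeq start site, 5′ to 3′ on the gene's strand, build GRCh38.p14. Capitals mark matches on either strand to ACGTG or GCGTG, the core letters of HIF binding sites. The windows lie at chr3:196082091-196082340 (minus strand), chrX:66163997-66164246 (plus strand), chr2:171521983-171522232 (plus strand) and chr2:189580787-189581036 (minus strand).
TFRC: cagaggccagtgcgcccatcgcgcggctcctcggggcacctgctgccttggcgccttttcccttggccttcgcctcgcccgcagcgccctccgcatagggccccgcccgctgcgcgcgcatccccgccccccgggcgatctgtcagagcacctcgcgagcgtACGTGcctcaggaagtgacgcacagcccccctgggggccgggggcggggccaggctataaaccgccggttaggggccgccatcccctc
HEPH: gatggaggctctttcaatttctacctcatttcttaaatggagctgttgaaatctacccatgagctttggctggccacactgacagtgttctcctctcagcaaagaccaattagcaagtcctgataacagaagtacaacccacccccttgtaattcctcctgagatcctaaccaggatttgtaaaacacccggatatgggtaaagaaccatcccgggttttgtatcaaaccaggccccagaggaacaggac
CYBRD1: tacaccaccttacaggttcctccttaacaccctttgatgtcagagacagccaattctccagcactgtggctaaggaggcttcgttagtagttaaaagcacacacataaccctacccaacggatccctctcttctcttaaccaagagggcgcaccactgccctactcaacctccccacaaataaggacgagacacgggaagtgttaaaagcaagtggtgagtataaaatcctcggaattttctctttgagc
SLC40A1: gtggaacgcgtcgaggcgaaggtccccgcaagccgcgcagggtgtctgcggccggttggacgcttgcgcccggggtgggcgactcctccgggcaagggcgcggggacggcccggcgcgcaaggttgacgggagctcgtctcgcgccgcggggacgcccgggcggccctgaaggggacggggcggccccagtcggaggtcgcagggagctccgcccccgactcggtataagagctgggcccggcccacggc
The TFRC window held 1 match to ACGTG, which began 88 bases before the start. The windows of HEPH, CYBRD1 and SLC40A1 held no match to either core. Of the members not printed, FTL held 3 matches (1 ACGTG 11 bases before the start and 2 GCGTG), SLC11A2 3 GCGTG, ACO1 and IREB2 1 GCGTG each, and TF none. Among 27305 RefSeq windows of this length, 18.7% held ACGTG and 31.9% held GCGTG on at least 1 strand. GC content was 74.4% in the TFRC window and 77.2% in that of SLC40A1, against 46.4% for HEPH and 47.6% for CYBRD1.

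The other sequence of use is the tip of the iron-responsive element of FTL, the hairpin by which iron controls ferritin translation. The 24 bases at chr19:48965335-48965358 (GRCh38.p14, plus strand) lie at the beginning of the transcript, and capitals mark the CAGTGN loop, searched on the sense strand only.
FTL: ctcttgcttcaaCAGTGTttggac
The loop began 38 bases after the start site. A CAGTGN match stood in the first 50 transcribed bases of 6.32% of the 27305 RefSeq windows, and of the 9 members with a window FTL was the only one. Transcript bases beyond these 50 were not searched, so elements of other members there would be missed. The arrays measured RNA and not translation.

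The main difference in this gene set lay between the lines. Averaged over oxygen, HEPH and SLC40A1 (1 of 2 probe sets each) and CYBRD1 (both) were lower in DKS-5 than in DKO-3. HEPH passed at both oxygen levels, CYBRD1 with 1 probe set in normoxia and both in hypoxia, and SLC40A1 only on average. On that average, 4 of the 19 tested member probe sets passed the threshold, 4 lower and 0 higher in DKS-5. Over all probe sets tested, 3.97% passed as lower and 1.74% as higher in that comparison, 5.71% in all. On that average 5 members lay wholly below DKO-3, where 7.37% of all probe sets did, and 1 lay wholly above, where 4.55% did. The members' median difference was -0.04 against -0.02 over all probe sets, with 8 positive and 11 negative. TFRC, FTL, SLC11A2 and ACO1 did not pass in any comparison in the fit over all 8 arrays without a replicate block.

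**Figure D1:**
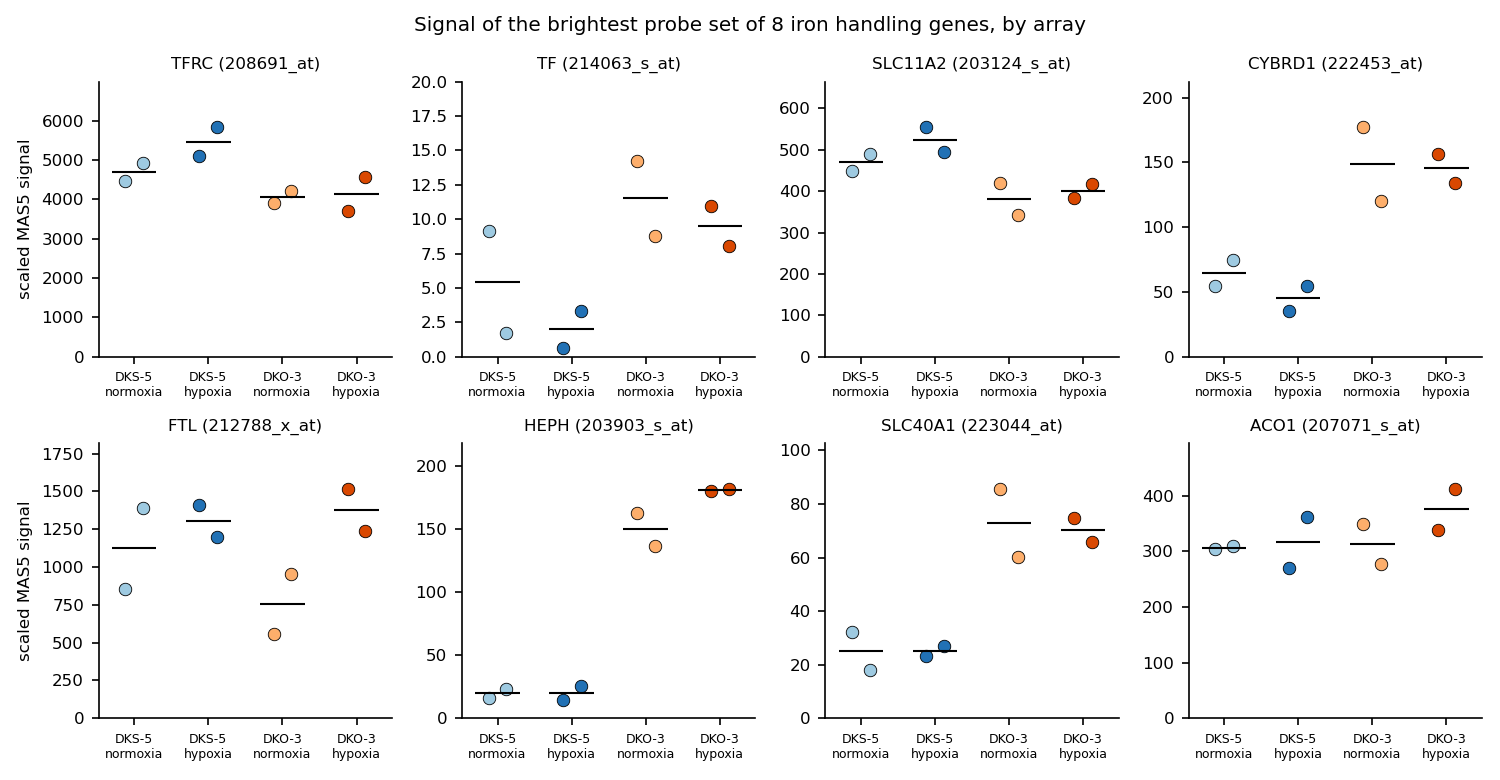
Scaled MAS5 signal (vertical axis of each panel, from 0) of the brightest probe set of 8 iron handling genes in the 4 groups, with 1 point per array and a bar at the mean of the 2 arrays. All 4 DKO-3 arrays lie above all 4 DKS-5 arrays for CYBRD1, HEPH and SLC40A1, whereas groups next to each other in level overlap for FTL and ACO1, and TF stays below 15.

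HEPH encodes hephaestin, a membrane-bound copper oxidase that converts iron as it leaves the gut cell so that transferrin can bind it. Its brighter probe set, 203903_s_at, had signals of 16.3 and 23.6 in normoxic DKS-5 cells and 14.9 and 25.2 in hypoxic ones. In DKO-3 the signals were 163 and 137 in normoxia and 179.8 and 182 in hypoxia. The lines did not overlap at either oxygen level, and the DKS-5 arrays sat close to the filter, which corresponded to a signal of 13.8.

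Line differences are DKS-5 minus DKO-3 throughout. For HEPH the difference was -2.21 ± 0.26 in normoxia (adjusted p = 0.000409) and -2.46 ± 0.26 in hypoxia (adjusted p = 0.000162, both limma). Averaged over oxygen it was -2.34 (95% interval -2.73 to -1.94), and -3.01 with a pseudocount of 1. No single fold is given, since the DKS-5 signals are dim and its size depends on the pseudocount. The group means were 19.96 ± 5.14 against 149.6 ± 18.2 in normoxia and 20.04 ± 7.34 against 180.7 ± 1.30 in hypoxia (SD, n = 2). The call in each oxygen level held in all 19 alternative settings run. The dimmer HEPH probe set, 203902_at, read 19.9 and 21.9, then 18.5 and 17.3 in DKS-5, and 38.1 and 35.5, then 28.6 and 37.4 in DKO-3 (normoxia first in each line). It too was lower in DKS-5 without overlap, but its averaged difference of -0.52 ± 0.17 did not pass (limma adjusted p = 0.0954).

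CYBRD1 encodes the ferric reductase of the brush border, which prepares dietary iron for import. Both of its probe sets were lower in DKS-5. Probe set 222453_at read 54.6 and 75.0, then 35.7 and 54.9 in DKS-5, against 177 and 120.0, then 156 and 134 in DKO-3 (normoxia first in each line). Probe set 217889_s_at read 39.2 and 29.6, then 37.0 and 30.5 in DKS-5, against 119 and 131, then 124 and 131 in DKO-3, in the same order. For both, every DKS-5 array lay below every DKO-3 array.

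The averaged line difference of CYBRD1 was -1.21 ± 0.20 for 222453_at (adjusted p = 0.00180) and -1.51 ± 0.18 for 217889_s_at (adjusted p = 9.92e-05, limma). Over the alternatives the sizes ran from -1.43 to -0.83 and from -1.87 to -0.96. No fold is given, since the size depends on the pseudocount at these DKS-5 signals. In normoxia 217889_s_at passed (-1.49 ± 0.25, limma adjusted p = 0.00685) while 222453_at did not (-1.01 ± 0.28, limma adjusted p = 0.124). In hypoxia both passed, at -1.53 ± 0.25 (adjusted p = 0.00414) and -1.41 ± 0.28 (adjusted p = 0.0162, limma). The normoxia call of 217889_s_at ended when any 1 of the 4 normoxia arrays was left out, with adjusted p from 0.0547 to 0.155, and without the filter on dim probe sets (0.0508). The hypoxia call of 222453_at ended without DKS-5 hypoxia replicate 1 (adjusted p = 0.0690), DKO-3 hypoxia replicate 1 (0.162) or DKO-3 hypoxia replicate 2 (0.0528), and without the filter (0.0836).

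SLC40A1 encodes ferroportin, the only known cellular iron exporter of mammals, and works beside hephaestin. Its brighter probe set, 223044_at, read 32.3 and 17.9 in normoxic DKS-5 cells and 23.4 and 27.0 in hypoxic ones. The DKO-3 signals were 85.6 and 60.1 in normoxia and 74.8 and 65.9 in hypoxia, above every DKS-5 array. The averaged difference of -1.09 ± 0.19 passed (limma adjusted p = 0.00295) and kept its call in all 17 alternatives run. Its size ran from -1.49 to -0.60 over them, and no fold is given, since the DKS-5 signals are dim. Within 1 oxygen level it did not pass, at -1.12 ± 0.27 in normoxia (limma adjusted p = 0.0661) and -1.07 ± 0.27 in hypoxia (limma adjusted p = 0.0570). The dim probe set 233123_at, with signals between 9.99 and 26.0, showed an averaged difference of -0.04 ± 0.18, so the probe sets of SLC40A1 did not give the same picture.

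Markers of colon epithelium moved with the lines too. Averaged over oxygen KRT20 was lower in DKS-5 (6.20 to 15.5 against 301 to 445, -4.01), as was KRT19 (-0.96), and VIL1 was higher (54.8 to 103 against 12.8 to 17.6, 1.65), while the other 5 tested markers did not pass. The KRT20 signals in DKS-5 and the VIL1 signals in DKO-3 lay near or under the filter's signal of 13.8, so the sizes depend on the pseudocount. KRT20 passed the filter through its DKO-3 signals. The part of these marker differences in the iron genes was not tested.

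RNA quality moved with the lines in hypoxia. The 3′ to 5′ signal ratio of ACTB, which is higher where RNA or its copy is shorter, was 54.8 and 25.6 in DKS-5 hypoxia against 11.5 and 11.0 in DKO-3 hypoxia. In normoxia it was 55.1 and 34.3 in DKS-5 and 49.0 and 14.9 in DKO-3. With the mean log2 of this ratio and that of GAPDH as a covariate, the hypoxia difference of HEPH 203903_s_at stayed called (-2.40, limma adjusted p = 0.0226). The hypoxia differences of CYBRD1 kept their size but not their calls (-1.57 for 217889_s_at and -1.50 for 222453_at, limma adjusted p = 0.130 and 0.222). The averaged differences of HEPH 203903_s_at, CYBRD1 217889_s_at and SLC40A1 223044_at stayed called (-2.29, -1.54 and -1.30, limma adjusted p = 0.00112, 0.0104 and 0.0408), while that of CYBRD1 222453_at did not (-1.28, limma adjusted p = 0.0609).

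**Figure D2:**
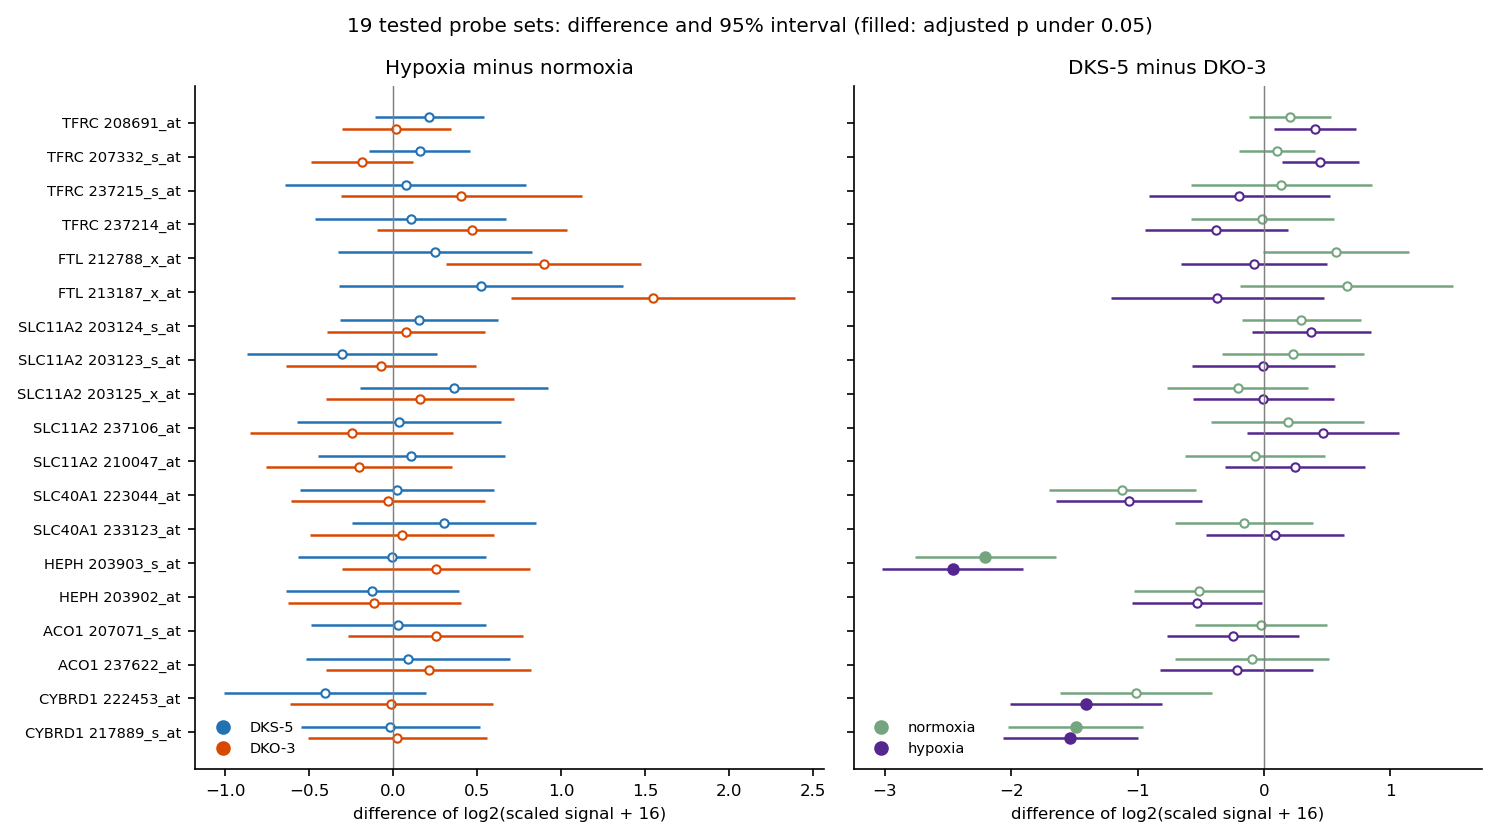
Difference of log2(scaled signal + 16) (horizontal axis) with its 95% interval for the 19 tested probe sets (rows), hypoxia minus normoxia in each line at left and DKS-5 minus DKO-3 at each oxygen level at right, with filled points where the adjusted p was below 0.05. All filled points are in the right panel, below 0, and belong to HEPH 203903_s_at, CYBRD1 217889_s_at and, in hypoxia, CYBRD1 222453_at.

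By oxygen level, 2 of the 19 member probe sets were called lower in DKS-5 in normoxia, where 0.799% of all probe sets were, and 3 in hypoxia, where 1.51% were. In either direction 1.15% of all probe sets were called in normoxia and 2.08% in hypoxia. No member was called higher in DKS-5, where 0.354% and 0.574% of all probe sets were. Without regard to the test, 6 members in normoxia lay below DKO-3 with no overlap, against 20.5% of all probe sets, and 6 in hypoxia, against 26% of all. Above DKO-3 with no overlap lay 3 members in normoxia, against 20.5% of all probe sets, and 5 in hypoxia, against 16.7% of all. Non-overlap of 2 arrays with 2 was thus common over all probe sets.

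No member passed the threshold for hypoxia in the fit without a replicate block. In DKS-5, 0 of 19 member probe sets passed in either direction, where 0.265% of all probe sets did (0.262% higher, 0.00305% lower), and 0 had an unadjusted p under 0.05. In DKO-3 the limma count was again 0, against 0.177% of all probe sets (0.174% higher, 0.00305% lower), and 2 had an unadjusted p under 0.05, both of FTL. Averaged over the lines, 0 of 19 passed by limma, where 0.583% of all probe sets were higher and 0.0275% lower (0.61% in all), and 2 members had an unadjusted p under 0.05. In each line the hypoxia arrays of 4 members lay above and those of 1 member below the normoxia arrays, where 17.3% and 16.7% of all probe sets did in DKS-5 and 22.7% and 14.9% in DKO-3. On average over the lines no member was free of overlap, against 3.26% of all probe sets above and 1.83% below. The median response of the 19 members was 0.09 in DKS-5 and 0.05 in DKO-3, against 0.00112 and 0.04 over all probe sets.

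TFRC, the receptor that brings transferrin-bound iron into the cell, is known as a HIF target through an upstream element with the core ACGTG. Its brightest probe set, 208691_at, read 4470.3 and 4926 in normoxic DKS-5 cells and 5088 and 5827 in hypoxic ones. In DKO-3 it read 3912 and 4216 in normoxia and 3704 and 4573 in hypoxia. The DKS-5 hypoxia arrays were the highest, and the DKO-3 groups overlapped. The hypoxia response was 0.21 ± 0.15 in DKS-5 (95% interval -0.11 to 0.54, limma adjusted p = 0.964) and 0.02 ± 0.15 in DKO-3 (-0.30 to 0.34, limma adjusted p = 0.984). A rise of 1 on the log2 scale lies outside both intervals of this probe set. In DKO-3 it lies inside those of 2 dimmer TFRC probe sets, 237215_s_at (0.41, -0.31 to 1.12) and 237214_at (0.47, -0.10 to 1.04). In DKS-5 their intervals ended at 0.79 and 0.67, and neither response passed in either line.

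The near equally bright TFRC probe set 207332_s_at read 4456 and 4805, then 5226 and 5100.1 in DKS-5, and 4093 and 4519, then 3557 and 4016 in DKO-3 (normoxia first in each line). Hypoxia arrays thus lay above normoxia arrays in DKS-5 and below them in DKO-3. The difference of the responses was 0.34 ± 0.20 and did not pass (limma adjusted p = 1.00). In hypoxia TFRC read higher in DKS-5, by 0.45 ± 0.14 for 207332_s_at (limma adjusted p = 0.126) and 0.40 ± 0.15 for 208691_at (limma adjusted p = 0.206), with no overlap between the lines. Without array scaling these values turned to -0.0076 and -0.053. The other 2 tested TFRC probe sets, both dimmer, had the opposite sign in that comparison, at -0.38 ± 0.27 (237214_at, no overlap) and -0.19 ± 0.34 (237215_s_at), and did not pass. The fifth probe set, 240686_x_at, was below the filter.

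TF encodes transferrin itself, a plasma protein made mainly by the liver. None of its 4 probe sets passed the filter. The brightest, 214063_s_at, read 9.15 and 1.71, then 0.665 and 3.33 in DKS-5, and 14.3 and 8.80, then 11.0 and 8.06 in DKO-3 (normoxia first in each line). Every TF value but 1 (14.3) thus lay under the filter's signal of 13.8, and the groups next to each other in level overlapped. No fold is given at these signals.

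SLC11A2 encodes the divalent metal transporter that imports reduced iron and moves it out of endosomes. Its brightest probe set, 203124_s_at, read 449 and 490.0, then 554 and 495 in DKS-5, and 419 and 342, then 384 and 416 in DKO-3 (normoxia first in each line). All DKS-5 arrays were above all DKO-3 arrays, which held for 4.55% of all probe sets, yet the averaged difference of 0.34 ± 0.16 did not pass (limma adjusted p = 0.257). Its 5 probe sets ranged from -0.31 to 0.36 in the hypoxia response of DKS-5 and from -0.25 to 0.16 in that of DKO-3, with both signs in each line. None passed in any comparison.

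FTL encodes the ferritin light chain, a subunit of the iron storage shell. Probe set 212788_x_at read 854 and 1393 in normoxic DKS-5 cells and 1412 and 1196 in hypoxic ones. In DKO-3 it read 557 and 955 in normoxia and 1517 and 1240.0 in hypoxia. Probe set 213187_x_at read 198 and 319, then 296 and 458 in DKS-5, and 87.4 and 263, then 391 and 591 in DKO-3 (normoxia first in each line). For both the DKO-3 hypoxia arrays lay above the DKO-3 normoxia arrays, while the DKS-5 groups overlapped. The suffix x_at marks probes that can also bind related sequences, so FTL and near-identical copies cannot be separated here.

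The FTL response in DKO-3 was 0.90 ± 0.27 for 212788_x_at (limma adjusted p = 0.396) and 1.55 ± 0.40 for 213187_x_at (limma adjusted p = 0.254), neither past the threshold. In DKS-5 the same probe sets gave 0.25 ± 0.27 and 0.52 ± 0.40 (limma adjusted p = 0.985 and 0.967). The responses of the lines differed by -0.65 ± 0.38 and -1.02 ± 0.56 (limma adjusted p = 1.00 for both). Leaving out DKO-3 normoxia replicate 2 brought 213187_x_at past the threshold at 2.26 (limma adjusted p = 0.0378). Leaving out DKO-3 normoxia replicate 1 lowered it to 0.83 and 212788_x_at to 0.52 (limma adjusted p = 1.00 for both). RNA quality differed among these arrays. It entered an alternative fit as a covariate, given below, but as a cause of the FTL signals it was not tested. The array with the lowest FTL signal for both probe sets, DKO-3 normoxia replicate 1, had an ACTB 3′ to 5′ ratio of 49.0. The ratio was 14.9 in the other DKO-3 normoxia array and 11.5 and 11.0 in DKO-3 hypoxia. DKS-5 hypoxia replicate 1, with a ratio of 54.8, read 1412 for 212788_x_at and 296 for 213187_x_at. With the quality covariate the DKO-3 responses were 0.49 ± 0.35 and 0.48 ± 0.36 (limma adjusted p = 1.00 for both).

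**Figure D3:**
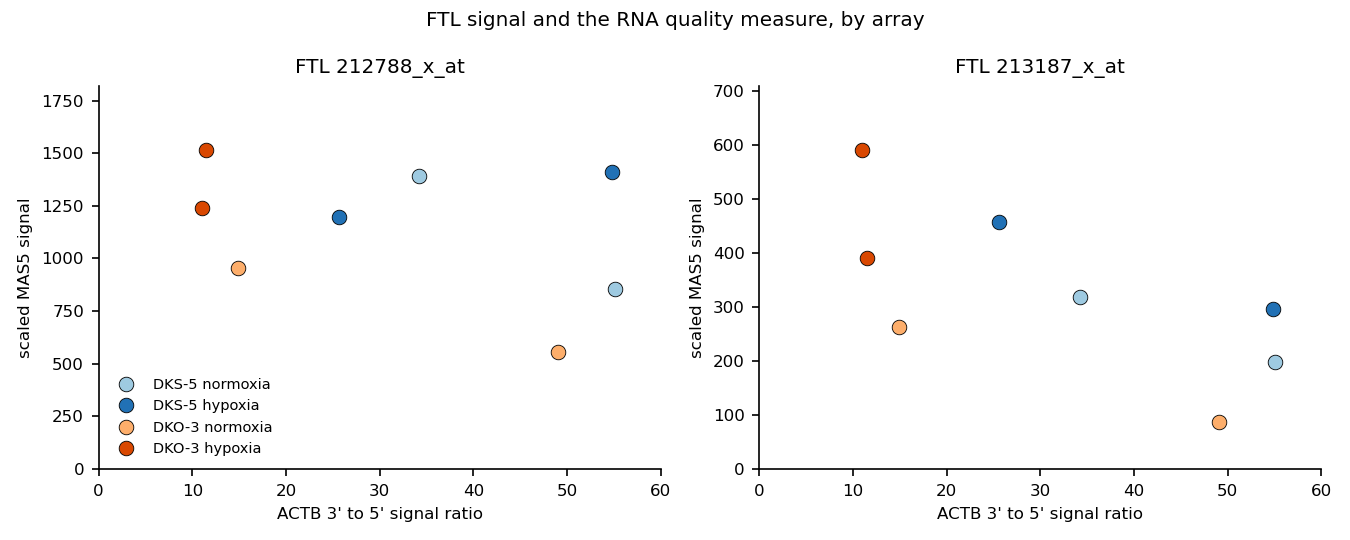
Scaled MAS5 signal of the FTL probe sets (vertical axes) against the ACTB 3′ to 5′ signal ratio (horizontal axes) in the 8 arrays, coloured by group. For 213187_x_at the lowest signal, 87.4, stands at a ratio of 49.0 and the highest, 591, at 11.0, whereas for 212788_x_at an array with a ratio of 54.8 reaches 1412.

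ACO1 encodes iron regulatory protein 1, which is a cytosolic aconitase when it holds an iron-sulfur cluster and binds iron-responsive elements when it does not. Its brighter probe set, 207071_s_at, read 304 and 309, then 271 and 363 in DKS-5, and 349 and 278, then 339 and 413 in DKO-3 (normoxia first in each line). Every group overlapped its neighbour in level. The hypoxia response was 0.03 ± 0.24 in DKS-5 and 0.25 ± 0.24 in DKO-3, and the averaged line difference was -0.13 ± 0.17 (limma adjusted p = 0.740). The dimmer probe set, 237622_at, ranged from 18.6 to 45.5 and did not pass either.

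Levels of the brightest probe sets could be ordered only in part. For HEPH the order was DKO-3 hypoxia, DKO-3 normoxia, DKS-5 normoxia and DKS-5 hypoxia, and the last pair overlapped. For CYBRD1 it was DKO-3 normoxia, DKO-3 hypoxia, DKS-5 normoxia and DKS-5 hypoxia, with overlap within each line. For SLC40A1 it was DKO-3 normoxia, DKO-3 hypoxia, DKS-5 hypoxia and DKS-5 normoxia, again with overlap within each line. In all 3 genes the step between the lines was the one without overlap, with HEPH also separating the DKO-3 groups.

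The gene most like each member over the 8 arrays was found by Pearson's r of log2 values among up to 25838 probe sets of other genes. Arrays of a line share most of the pattern, so r describes these arrays and carries no p. HEPH 203903_s_at was most like SH3BGRL (r = 0.9954), whose signal was 1.44 to 8.01 in DKS-5 and 491 to 886 in DKO-3. SLC40A1 223044_at was most like RPS6KA2 (r = 0.9885) and CYBRD1 222453_at most like KCTD15 (r = 0.9861). TFRC 208691_at was most like TM9SF3 (r = 0.9851), FTL 212788_x_at like TBC1D9B (r = 0.9861), SLC11A2 203124_s_at like SMIM19 (r = 0.9673) and ACO1 207071_s_at like GOPC (r = 0.9769).

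Beyond the members, 6 lists of other iron and haem genes held 78 symbols, of which 68 had a probe set and 62 were tested by the brightest one. In hypoxia 0 of the 62 passed in DKS-5, in DKO-3 or on average, with 1, 5 and 7 at an unadjusted p under 0.05 by limma, where 5.35%, 8.07% and 11.1% of all probe sets were. Between the lines on average 3 were lower in DKS-5, all in iron uptake and reduction, and 1 was higher, in mitochondrial iron and iron-sulfur clusters. Over all probe sets 3.97% were lower and 1.74% higher. With 1 probe set per gene, as in the lists, 9.11% passed in either direction. The 4 of 62 lie near these shares and are no result about the lists. The median of the 62 was -0.03 against -0.02 over all probe sets.

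Of 10 tested genes of iron uptake and reduction, 3 were lower in DKS-5 averaged over oxygen, 0 were higher and 7 did not pass. With 1 probe set per gene, 781 of 12735 were lower and 379 higher in that comparison. STEAP4, a membrane metalloreductase, read 101 and 115, then 99.3 and 112 in DKS-5, and 392 and 324, then 313 and 459 in DKO-3 (normoxia first in each line). Its averaged difference was -1.64 ± 0.18 (limma adjusted p = 6.44e-05). LCN2, lipocalin 2, which binds iron-loaded siderophores, read 34.5 and 57.1, then 41.2 and 70.8 in DKS-5, and 145 and 229, then 266 and 268 in DKO-3 (-1.86 ± 0.21, limma adjusted p = 8.59e-05). STEAP1, of the same family as STEAP4, differed by -0.76 ± 0.17 (limma adjusted p = 0.0139). LCN2 and STEAP4 passed at each oxygen level too, and STEAP1 only on average. With 1 probe set per gene, 2.54% of all passed in either direction in normoxia and 4.37% in hypoxia.

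**Figure D4:**
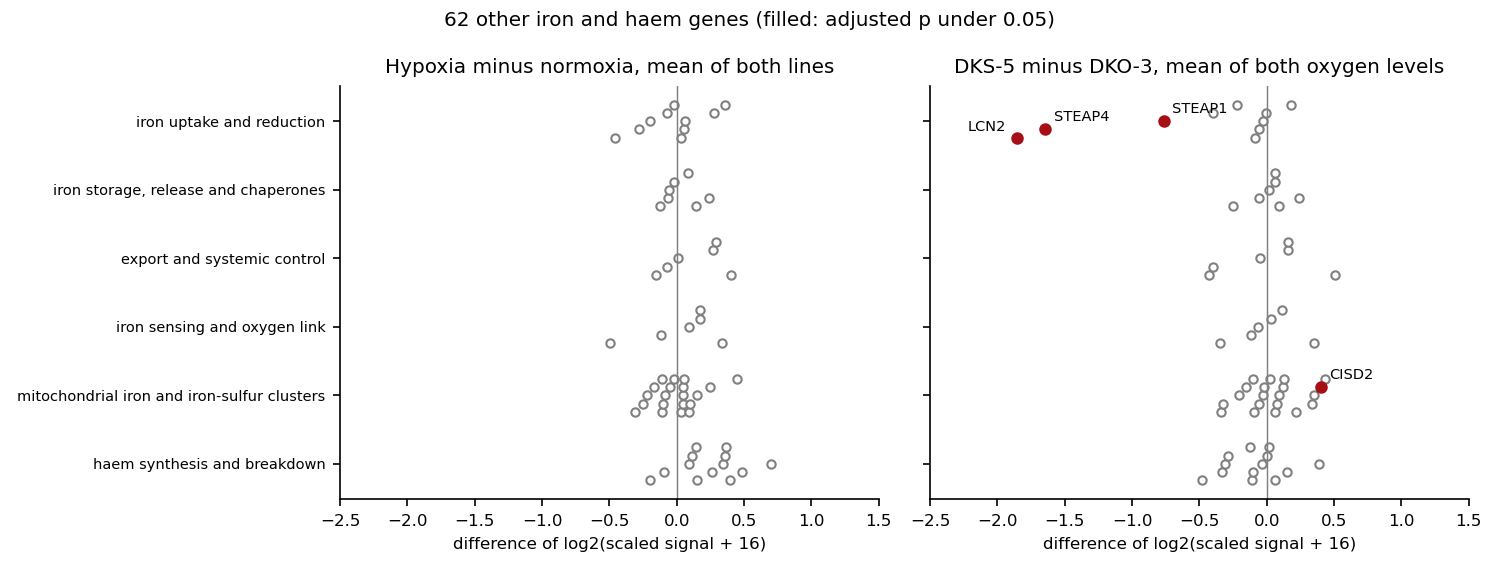
Difference of log2(scaled signal + 16) (horizontal axis) of 62 other iron and haem genes in 6 lists (rows), 1 point per gene, for hypoxia averaged over the lines at left and DKS-5 minus DKO-3 averaged over oxygen at right. Filled points passed the threshold, and all 4 are at right: LCN2, STEAP4 and STEAP1 below 0 and CISD2 above 0.

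The other lists held few calls. CISD2, an iron-sulfur protein of the endoplasmic reticulum and mitochondria, was higher in DKS-5 by 0.40 ± 0.11 (limma adjusted p = 0.0383), the only call of 20 genes of mitochondrial iron and iron-sulfur clusters. None passed among 7 genes of iron storage, release and chaperones, 6 of export and systemic control, 6 of iron sensing and oxygen link, or 13 of haem synthesis and breakdown. NCOA4, the ferritin receptor of autophagy, was at 0.09 ± 0.13 between the lines. HIF1A, of the oxygen link list, had the smallest p of all list genes for hypoxia in DKS-5 but did not pass. It read 2606 and 2542, then 1978 and 1599 in DKS-5 (normoxia first in each line). In DKO-3 it read 2489 and 1562, then 1277 and 1583, with overlap. The 13 haem genes had a median hypoxia response of 0.26 on average over the lines against 0.02 for all probe sets, with HMOX2, a haem oxygenase, at 0.70 ± 0.19 (limma adjusted p = 0.158). The arrays of DKO-3 hypoxia also had the lowest ACTB ratios, 11.5 and 11.0, and the part of RNA quality in the haem genes was not tested.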

How the data were processed

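Per the submitters' processing notes, the deposited values were made by the authors with MAS5, as probe set intensity on a linear scale for 54675 probe sets, 1 column per array. Its version and scaling target are not given in the sources used here. Each array was scaled to the median 2% trimmed mean, because the trimmed means differed 1.52-fold (tolerance 10%), and log2(signal + 16) was taken. The 62 control probe sets and those below the 40th percentile of mean log2 were left out, which left 32771. Limma 3.58.1 in R 4.3.3 fitted 1 mean per group over all 8 arrays (eBayes with trend, 4 residual and 10.8 prior degrees of freedom, two-sided, Benjamini-Hochberg). Averaged comparisons are means of both lines' or both oxygen levels' differences. Intervals are 95% and use the moderated spread. The number of arrays limits the precision. The fit was checked on simulated data. Sequences are from RefSeq tables (GRCh38.p14), matched by symbol for 9 of the 10 genes. Named were every member, and from 6 wider lists every gene past the threshold in the main fit and a few others. Not every gene with a small p was named. The members and lists were chosen with earlier results of these data known. Alternatives were other scalings, pseudocounts, filters, spread models, a quality covariate, a replicate block and leaving out each array.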

Additional observations from a re-analysis of the deposited data

How the results depend on the processing

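Among the 19 member probe sets, the counts of calls moved by over 1.5 times in few settings. For the lines in normoxia (2 called) the count was 1 without the filter on dim probe sets, and 1 to 2 when each array was left out. For the lines in hypoxia (3 called) it was 5 without array scaling, where the median of all probe sets was -0.42 against -0.05 with scaling, and 1 with the RNA quality covariate. Leaving out the scaling also changed all calls there from 188 higher and 494 lower to 111 and 5101, and for the averaged lines from 569 and 1301 to 246 and 3298. For hypoxia in DKO-3 and for hypoxia averaged over the lines (0 called) it was 0 to 1 when each array was left out, with 1 only without DKO-3 normoxia replicate 2. Without scaling TFRC in hypoxia turned from 0.45 to -0.0076 (207332_s_at) and from 0.40 to -0.053 (208691_at). The line difference of TFRC 208691_at averaged over oxygen was 0.31 and ran from 0.07 to 0.43 over the alternatives. Counts over all probe sets ranged from 31 to 193 for hypoxia in DKS-5 (87), 1 to 116 in DKO-3 (58), 111 to 587 for the lines in normoxia (378), 90 to 5212 in hypoxia (682), 64 to 786 for averaged hypoxia (200) and 466 to 3544 for the averaged lines (1870). The causes were not tested. Dim signals limit HEPH, SLC40A1 and CYBRD1 in DKS-5.

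The labels do not say that equal sample numbers mark a shared day or batch. The correlation of same-numbered samples' deviations ran from -0.06 to 0.35 over 6 pairs of groups and did not settle it. With the replicate block 1 member passed for hypoxia in DKO-3 and 1 on average, in both FTL 213187_x_at (adjusted p = 0.00738 and 0.00522), 3 in normoxia and 4 in hypoxia between the lines, and 4 for the averaged lines. Over all probe sets the block moved the calls from 58 to 115 for hypoxia in DKO-3, 378 to 587 and 682 to 1180 between the lines, and 200 to 372 for averaged hypoxia.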
